A study of Mus musculus and Rattus norvegicus with 96 samples.

Results

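Major urinary proteins are small lipocalins that hepatocytes secrete into the blood and that pass into the urine of mice, where they bind and slowly release volatile pheromones. Their genes lie side by side in a cluster on mouse chromosome 4, and in the liver of adult males they are among the most abundant messenger RNAs. Their transcription is known to depend on pulsatile growth hormone acting through its receptor, Jak2 and Stat5, and on androgen. The 5 examined here in mouse liver preserved in 4 ways were Mup3, Mup10, Mup15, Mup20 and Mup21, out of 21 genes with a Mup symbol and 24543 genes in the count table. Mup20 is darcin, the pheromone-like member that female mice remember by scent. The members were chosen by name from that family, Mup10 being selected on its measured difference between formalin and ethanol among the frozen-first samples, so that contrast is described below with no test, and so are the differences of Mup10 in those samples from frozen liver.

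The livers came from 12 male B6C3F1 mice, a first-generation cross of C57BL/6 and C3H strains, aged 10 to 11 weeks. In all, 6 mice drank water (Con) and 6 drank water with 600 ppm phenobarbital (PB), a barbiturate that activates the nuclear receptor Car and induces Cyp2b10, for 7 days. Every liver gave 4 preparations, so each of the 8 groups held 6 libraries and each mouse appeared in 4 of the 48. FR was frozen. FFPE was placed fresh in 10% neutral buffered formalin for 18 to 24 hours and embedded in paraffin. FR>FFPE was frozen, then given the same formalin step and embedded, and FR>OH was frozen, then fixed in 70% ethanol and embedded. FR, FR>FFPE and FR>OH were portions of the same frozen tissue, whereas FFPE was a separate piece. RNA was taken from the embedded groups with a different kit from the one used on FR, so the kit cannot be told apart from fixation and embedding when an embedded group is set against FR.

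Library totals were lowest in FFPE, from 4952797 to 6760422 counts, and highest in FR, from 11737338 to 13702672. FR>FFPE libraries held between 5534973 and 10681783 counts and FR>OH libraries between 8167321 and 11539022. Cyp2b10, the check of the treatment labels, was at most 2.45 CPM (counts scaled to a library total of 1e6) in Con libraries and at least 1080 CPM in PB libraries. The defining hepatocyte markers were present in every group, but the median of their summed level was 104600 CPM among FR Con libraries against 56740 CPM among FFPE Con libraries, and its part in the results below was not tested. The same medians went from 318.3 to 188.7 CPM for Kupffer, 355.3 to 233.2 for stellate and 89.35 to 49.17 for bile duct markers. Red cell markers went from 368.2 to 230.8, lymphocyte markers from 0.964 to 0.474 and endothelial markers from 320.1 to 353.6. CPM is a share of the library. A fall in it in these bulk samples cannot separate fewer hepatocytes from less RNA per hepatocyte or from more of other RNA.

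The 5 genes differ in how easily a short read can be assigned to them, which matters for every value that follows. Reads were pairs of 50 bases. In the GENCODE transcripts of the GRCm38 build, 100% of the 50-base windows of Mup15 occurred in the transcript of at least 1 other Mup gene. The share was 86.2% for Mup10, 19.1% for Mup21, 15.9% for Mup3 and 4.66% for Mup20. Mup10 and Mup15 differed at 6 of 540 coding bases, and each had 14 of 20 other Mup genes with more than 500 coding bases at 98% coding identity or more. Among those genes the nearest relative of Mup10 was Mup22, with 1 mismatch, and that of Mup15 was Mup2, with 2. Mup3 and Mup21 were closest to each other, with 20 mismatches and 96.3% identity. Mup20 was farthest from its nearest relative, Mup5, at 91.7% identity. Mup11, whose coding transcript has 282 bases, was left out of that ranking, and over those bases it had 0 mismatches to Mup10, 1 to Mup15 and 93.3% identity to Mup20. Estimated counts carried the same mark: 95.7% of all values in the table were whole to within 0.01, against 22.5% of the values of Mup genes, in a counting method that divides reads matching several copies among them. Zeros count as whole, and 18841 of the 24543 genes were not at 0 everywhere, so genes without reads raise the first share.

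A stretch of 60 coding bases shows the contrast. It was picked for the most differences between Mup10 and Mup15, then among the 5 genes, so it is not a typical stretch. Over all aligned coding bases Mup10 differed from Mup3 at 72 of 535, from Mup21 at 78 of 538 and from Mup20 at 48 of 540. The sequences below are on the minus strand of GRCm38, all from 1 exon, and capitals mark the bases that differ from Mup10. The stretch lies at chr4:60580680-60580739 in Mup10, chr4:61438224-61438283 in Mup15, chr4:62052637-62052696 in Mup20, chr4:62085960-62086019 in Mup3 and chr4:62149355-62149414 in Mup21.
Mup10: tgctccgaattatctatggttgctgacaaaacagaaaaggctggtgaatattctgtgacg
Mup15: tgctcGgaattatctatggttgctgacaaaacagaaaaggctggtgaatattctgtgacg
Mup20: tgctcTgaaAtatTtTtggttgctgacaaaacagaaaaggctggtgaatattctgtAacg
Mup3: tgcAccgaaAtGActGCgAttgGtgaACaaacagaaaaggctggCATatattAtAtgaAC
Mup21: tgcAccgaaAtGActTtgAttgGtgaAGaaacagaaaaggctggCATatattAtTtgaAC
Mup15 differed from Mup10 at 1 of these positions, Mup20 at 5, Mup21 at 16 and Mup3 at 17. The Mup10 bases were found unchanged in 7 other Mup genes and the Mup15 bases in 6, while those of Mup3, Mup20 and Mup21 were found in no other. Mup10, Mup20, Mup3 and Mup21 have entries of 3896, 3884, 3838 and 3011 bases in the table. The Mup15 entry runs from 60066469 to 61439705 on chromosome 4, a span of 1373237 bases that covers several other Mup loci, so its counts are not those of a single locus. Strain sequence adds to this, since the C3H copies of the cluster are not in the reference genome. Values of Mup10 and Mup15 are therefore uncertain as measures of single genes, and those of Mup20 are the most direct.

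Levels between genes were compared as CPM per kilobase of transcript. The Mup15 entry, which covers several loci, was divided by 1 transcript of 925 bases, so its place is not that of a single gene. In FR, Mup15 was highest at 10690 ± 3590 (SD, n = 12 mice), followed by Mup3 at 7264 ± 1370, Mup20 at 5805 ± 1810, Mup21 at 499.3 ± 237 and Mup10 at 317.0 ± 91.1. Mup15 exceeded Mup3 in 9 of 12 mice, Mup3 exceeded Mup20 in 9 of 12, and Mup21 exceeded Mup10 in 7 of 12, so those neighbours overlapped. Mup20 exceeded Mup21 in 12 of 12. In FFPE the last places were exchanged, with Mup10 at 1286 ± 476 and Mup21 at 226.7 ± 101, and Mup10 was above Mup21 in 12 of 12 mice. Mup10 was also above Mup21 in 11 of 12 FR>FFPE pieces, whereas in FR>OH Mup21 was above Mup10 in 8 of 12.

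**Figure D1:**
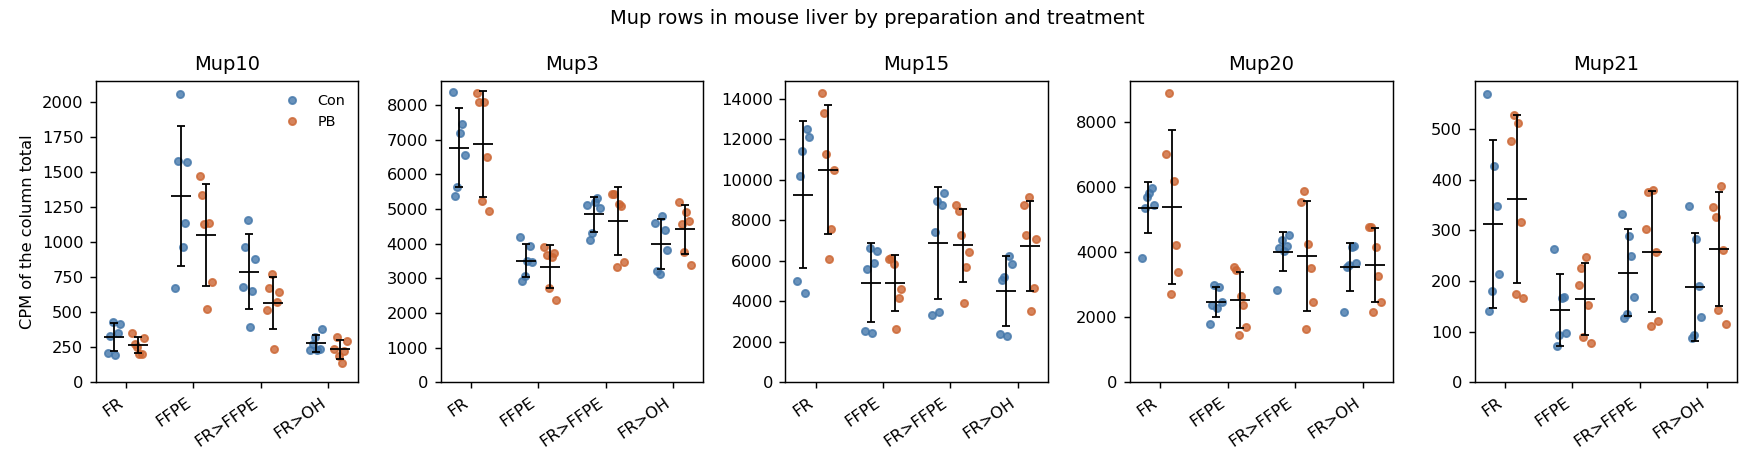
CPM of the column total of each of the 5 Mup genes by preparation (x axis), with 1 point per library, blue for Con and orange for PB, and the black mark and bar giving the mean and SD of 6 mice. Mup10 was highest in FFPE, with means of 1330 CPM in Con and 1053 CPM in PB, whereas Mup3, Mup15, Mup20 and Mup21 were highest in FR.

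The first comparison asked what direct formalin fixation does to the Mup messages, FFPE against FR. On the column total, Mup10 rose about 4-fold while the other 4 genes were at about 0.5 of their frozen level. On the authors' log2 CPM, where the median of all genes was -0.69 in Con, Mup10 had a log2 fold change of 1.05 in Con and 0.99 in PB, and the other 4 genes had -2.09 to -1.88 in Con and -2.07 to -1.98 in PB (limma). Mup10 was 194.9 CPM in the lowest, 341 in the median and 433 in the highest FR Con library, and 672.8, 1354 and 2055 CPM in FFPE Con. In PB mice it was 201.3, 260.2 and 350.4 CPM in FR and 522.4, 1133 and 1475 CPM in FFPE. The FR and FFPE libraries did not overlap in either treatment, and FFPE was higher in 12 of 12 mice, with ratios from 2.28 to 5.54 and a median of 4.36. The fitted log2 fold change was 2.04 ± 0.27 (SE) in Con (adjusted p = 1.293e-08, edgeR quasi-likelihood test with Benjamini-Hochberg adjustment over 13370 genes) and 1.99 ± 0.27 in PB (adjusted p = 1.957e-08).

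Mup3, the closest relative of Mup21, was 5375, 6877 and 8379 CPM in FR Con (lowest, median and highest) and 2913, 3473 and 4180 CPM in FFPE Con. In PB it was 4943, 7293 and 8334 CPM in FR and 2369, 3643 and 3905 CPM in FFPE. No FFPE library reached the lowest FR library of its treatment. Its log2 fold change was -0.95 ± 0.15 in Con (adjusted p = 7.872e-07), short of the 2-fold that a call required, and -1.04 ± 0.15 in PB (adjusted p = 1.071e-07).

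Mup20 was 3833, 5578 and 5992 CPM in FR Con and 1779, 2419 and 2996 CPM in FFPE Con, again with no overlap. In PB mice, where it varied most between animals, it was 2723, 5197 and 8897 CPM in FR and 1438, 2527 and 3541 CPM in FFPE, and these ranges overlapped. Its log2 fold change was -1.12 ± 0.26 in Con (adjusted p = 0.000226) and -1.09 ± 0.26 in PB (adjusted p = 0.0002729). Every mouse had less Mup20 in its fixed piece, with ratios from 0.389 to 0.566.

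Mup15 was 4388, 10795 and 12500 CPM in FR Con and 2422, 5759 and 6613 CPM in FFPE Con. In PB it was 6065, 10876 and 14281 CPM in FR and 2620, 5224 and 6154 CPM in FFPE. The ranges overlapped, yet all 12 mice were lower in FFPE, with ratios from 0.428 to 0.579. Its log2 fold change was -0.91 ± 0.31 in Con (adjusted p = 0.01082, under 2-fold) and -1.10 ± 0.31 in PB (adjusted p = 0.002317).

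Mup21, the shortest of the 5 entries, was 141.3, 281.2 and 570.2 CPM in FR Con and 70.6, 131.8 and 262.7 CPM in FFPE Con. In PB it was 166.7, 397.3 and 527.1 CPM in FR and 77.3, 171.7 and 248.3 CPM in FFPE. The groups overlapped, and within mice the ratio was 0.389 to 0.516 in all 12. Its log2 fold change was -1.13 ± 0.40 in Con (adjusted p = 0.01314) and -1.15 ± 0.40 in PB (adjusted p = 0.01137).

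In Con, 1 of the 5 genes was called higher and 2 lower, against 11.5% of all tested genes called higher and 1.74% called lower. In PB, 1 was called higher and 4 lower, against 14.4% and 2.15%. This background depends on the scaling: in Con it was 5.47% higher and 4.61% lower with TMM, and 0.696% higher and 28.2% lower with limma on the authors' log2 CPM. In PB these were 7.4% and 5.5% with TMM, and 1.21% and 27.8% with limma. With TMM or DESeq2 scaling all 5 were called in Con too, Mup3 and Mup15 included. The median log2 fold change of all genes was 0.32 in both treatments, so the 4 falls were larger relative to a typical gene than relative to the total. The number after L in the library names differed between most FR and FFPE libraries. In a comparison chosen after the data were seen, the PB libraries that shared the number 2 (2 FFPE and 2 FR) gave log2 fold changes of 1.58 ± 0.22 for Mup10 and -2.13 to -1.43 for the others, all 5 called (edgeR adjusted p from 0.0002139 to 0.001277). The FR libraries there were mice 18B and 18D and the FFPE libraries mice 75C and 80B, so fixation cannot be told apart from the mouse in those values. For Con no number was shared, and there it cannot be told apart from the fixation. Neither FR>FFPE nor FR>OH shared a number with FR in the same treatment, so the same limit holds for both below.

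**Figure D2:**
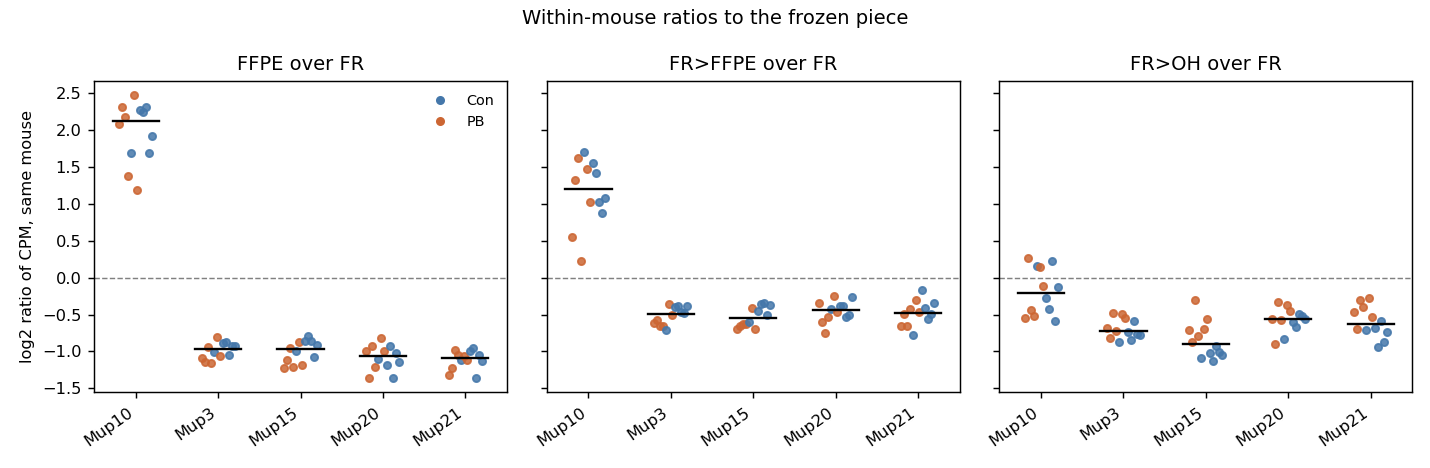
Log2 ratio of CPM in each fixed piece to CPM in the frozen piece of the same mouse (y axis) for the 5 genes (x axis), with 1 point per mouse, blue for Con and orange for PB, a black line at the median of 12 mice and a dashed line at no difference. In FFPE all 12 mice lie above the line for Mup10 and below it for the other 4 genes.

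The second comparison asked what the same formalin step does once the tissue has been frozen, FR>FFPE against FR. The 4 genes other than Mup10 lay at about 0.7 of the frozen level and none was called. Mup3 had medians of 5066 CPM in FR>FFPE Con and 5120 CPM in FR>FFPE PB, with log2 fold changes from FR of -0.48 ± 0.15 (adjusted p = 0.007554) and -0.56 ± 0.15 (adjusted p = 0.001537). Mup20 had log2 fold changes of -0.42 ± 0.25 in Con (adjusted p = 0.1755) and -0.48 ± 0.25 in PB (adjusted p = 0.1053). Mup15 had -0.43 ± 0.31 (adjusted p = 0.254) and -0.63 ± 0.31 (adjusted p = 0.07666), and Mup21 had -0.53 ± 0.39 (adjusted p = 0.2666) and -0.49 ± 0.39 (adjusted p = 0.2864).

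Thus 0 of 4 genes passed both criteria in each treatment, against 0.0748% of all genes called lower in Con and 0.0673% in PB. With limma on the authors' log2 CPM, 1.05% of all genes were called higher and 0.77% lower in Con, and 2.1% and 1.35% in PB. At an unadjusted p under 0.05 the edgeR counts were 1 of 4 in Con (Mup3) and 2 of 4 in PB (Mup3 and Mup15), against 53% and 60.5% of all genes, and DESeq2 called 0 in both. At an adjusted p under 0.05 with no fold criterion, Mup3 passed in both treatments, against 5.47% and 6.99% of all genes lower. The mice did not scatter around their frozen value: each of the 4 genes was lower in 12 of 12 mice, with ratios from 0.583 to 0.894. When the mouse entered the edgeR fit as a block, the paired log2 fold change of Mup20 was -0.42 ± 0.06 in Con (adjusted p = 1.221e-07), that of Mup15 -0.44 ± 0.05 (adjusted p = 7.208e-10) and that of Mup21 -0.46 ± 0.06 (adjusted p = 1.056e-08), still under 2-fold.

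Mup10, given as a description only, was 397.0, 777.9 and 1159 CPM in FR>FFPE Con and 235.6, 605.4 and 771.3 CPM in FR>FFPE PB. It exceeded the frozen piece in 12 of 12 mice, with ratios from 1.17 to 3.24. It was also below the directly fixed piece in 11 of 12 mice, with mouse 21C the exception (679.3 CPM in FR>FFPE and 672.8 CPM in FFPE).

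The third comparison took the frozen tissue into ethanol in place of formalin, FR>OH against FR. Mup15 was the member called, with a log2 fold change of -1.04 ± 0.31 in Con (adjusted p = 0.00586) against 0.352% of all genes called lower, and 1 of 4 genes was called. In PB it was -0.64 ± 0.31 (adjusted p = 0.09855), and 0 of 4 genes were called against 0.142%, with 3 of 4 at an unadjusted p under 0.05 (edgeR) against 46% of all genes, and 0 called by DESeq2. With limma on the authors' log2 CPM, 1.19% of all genes were called higher and 3.19% lower in Con, and 1.28% and 0.875% in PB. The difference between those treatments was not past the threshold (interaction log2 0.40 ± 0.44, adjusted p = 0.9996, edgeR). That fit has no term for the mouse, so its SE includes the spread between mice. As a description, the ratio of FR>OH to FR for Mup15 was higher in each PB mouse than in any Con mouse. The treatments are therefore not shown to be alike. FR>OH medians of Mup15 were 5123 CPM in Con and 7175 CPM in PB.

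Mup3 fell in both treatments when the fold criterion was dropped, with log2 fold changes of -0.76 ± 0.15 (adjusted p = 6.509e-05) and -0.64 ± 0.15 (adjusted p = 0.0006713), against 9.88% and 7.35% of all genes. Mup20 had -0.59 ± 0.25 in Con (adjusted p = 0.05587) and -0.59 ± 0.25 in PB (adjusted p = 0.06137). Mup21 had -0.73 ± 0.39 (adjusted p = 0.1338) and -0.46 ± 0.39 (adjusted p = 0.3707). The mouse was not a term in this fit, so the SEs include the spread between mice and do not measure the change within a mouse. As after formalin, each of these 4 genes was lower than in the frozen piece in 12 of 12 mice, with ratios from 0.457 to 0.826.

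Mup10 stayed near its frozen level after ethanol. It was 227.4, 253.2 and 380.8 CPM in FR>OH Con and 140.0, 232.5 and 322.4 CPM in FR>OH PB, above the frozen piece in 4 of 12 mice and below it in 8, with ratios from 0.667 to 1.20.

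FR>FFPE against FR>OH is the contrast that picked Mup10, and its values are given as a description. The number after L was 3 against 4 or 5 in Con and 4 against 5 in PB, so it cannot be told apart from the fixative. Mup10 was higher after formalin in 12 of 12 mice, with ratios from 1.68 to 4.16, and the ratio of group means was 2.83 in Con and 2.43 in PB. The lowest FR>FFPE Con library, at 397.0 CPM, lay above the highest FR>OH Con library, at 380.8 CPM, while in PB the libraries overlapped because of mouse 20D, at 235.6 CPM in FR>FFPE. The other members had smaller ratios of means in CPM: Mup3 had 1.21 in Con and 1.05 in PB, Mup15 1.53 and 1.00, Mup20 1.13 and 1.08, and Mup21 1.15 and 0.978. Their side of 1 depended on the scale: with TMM the PB ratios were 0.949 for Mup3, 0.898 for Mup15, 0.972 for Mup20 and 0.884 for Mup21, and as a share of Mup counts the Con ratios were 0.914 for Mup3, 0.845 for Mup20 and 0.880 for Mup21. Mup10 stayed above 2 on each of these scales. In Con the whole family lay higher after formalin, with 20 of 20 fitted log2 fold changes above 0 and a median of 0.55 over the 18 genes other than Mup10 and Mup5. In PB it was 12 of 20, with a median of 0.04. Mup19 was higher after formalin in 12 of 12 mice, with a ratio of means of 1.55, and Mup5 (2.00), Mup8 (1.45), Mup14 (1.26) and Mup3 (1.13) in 11 of 12.

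The question of whether Mup10 followed its family was taken up over the 20 Mup genes that passed the filter on low counts. Mup4, named after its values were seen, did not pass at 0.199 CPM on average. In FFPE against FR, 18 of the 20 had a fitted log2 fold change below 0 in each treatment, from -1.17 to -0.27 in Con and from -1.35 to -0.59 in PB. Mup10 and Mup5 were the exceptions. Mup5 was far rarer, at 0.403 ± 0.167 CPM (SD, n = 6) in frozen Con liver and 2.26 ± 1.47 CPM after direct formalin, from libraries of 2 to 25 counts, and its log2 fold change was 2.44 ± 0.38 (adjusted p = 4.25e-07). In PB it was 2.71 ± 0.37 (adjusted p = 2.341e-08).

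Mup5 has 16.1% of its 50-base windows in another Mup gene, so the pair that rose is not alike in how far its sequence is shared. Mup5 was also higher in FR>FFPE than in FR, with log2 fold changes of 1.96 ± 0.38 in Con (adjusted p = 3.38e-05) and 1.71 ± 0.38 in PB (adjusted p = 0.0001575). Mup7, the Mup symbol with the most counts on average, had 14955 ± 1659 CPM in frozen Con liver and 6640 ± 912 CPM after direct formalin. It fell by 1.17 on the log2 scale in Con (adjusted p = 1.064e-09) and by 1.23 in PB (adjusted p = 2.322e-10). Mup8 and Mup2 were called lower in PB alone, at -1.03 ± 0.20 (adjusted p = 1.438e-05) and -1.35 ± 0.35 (adjusted p = 0.000954), and in Con they had -0.88 ± 0.20 and -0.93 ± 0.35. The Mup2 entry spans 1303791 bases and covers other Mup loci, so its counts, like those of Mup15, are not those of a single locus. Whether Con and PB differed was tested by the interaction, in a fit without the mouse as a term, which called none of the 20. The other Mup genes were not called in either treatment.

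**Figure D3:**
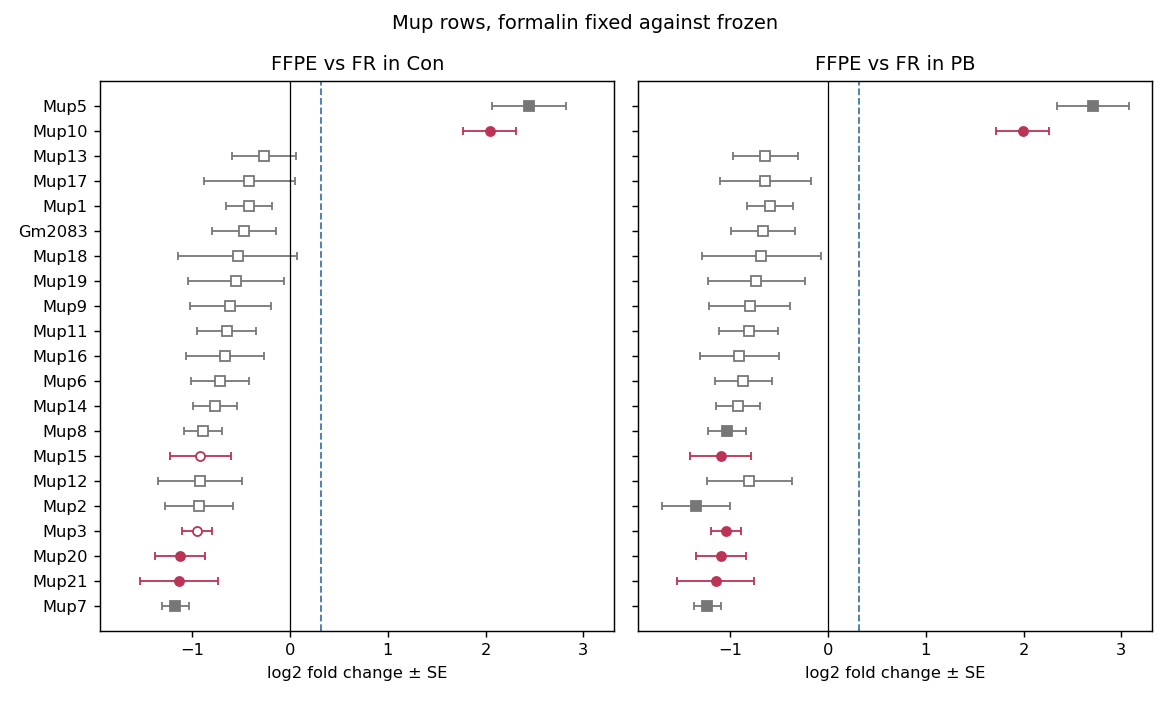
Fitted log2 fold change (x axis, bars ± SE) of FFPE against FR for 20 Mup genes and Gm2083 in Con (left) and PB (right), 6 mice a group. Red circles are the 5 genes described here and grey squares the rest, filled where called, and the dashed blue line is the median of all genes at 0.32. Mup5 and Mup10 are the entries to the right of 0.

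The 21 genes with a Mup symbol, a pool that leaves out Gm2083, together took 6.34% ± 1.40 of counts in FR Con and 6.59% ± 1.69 in FR PB (SD, n = 6). The share was 3.62% ± 0.974 in FFPE Con and 3.43% ± 0.760 in FFPE PB. It was 4.91% ± 1.40 and 4.59% ± 0.970 in FR>FFPE, and 3.55% ± 0.701 and 4.44% ± 0.909 in FR>OH. Within that pool the Mup10 share was 0.500% ± 0.0716 in FR Con and 3.65% ± 0.834 in FFPE Con, and 0.411% ± 0.0790 and 3.01% ± 0.631 in PB. The highest FR library had 0.618% and the lowest FFPE library 2.01%, so the preparations did not overlap on this scale, which does not depend on the library total. The Mup10 share was 1.64% ± 0.486 in FR>FFPE Con and 0.790% ± 0.122 in FR>OH Con. The Mup3 share moved little, from 11.3% ± 4.18 in FR Con to 10.6% ± 4.17 in FFPE Con, and so did that of Mup15, from 14.1% ± 3.21 to 13.1% ± 2.30.

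**Figure D4:**
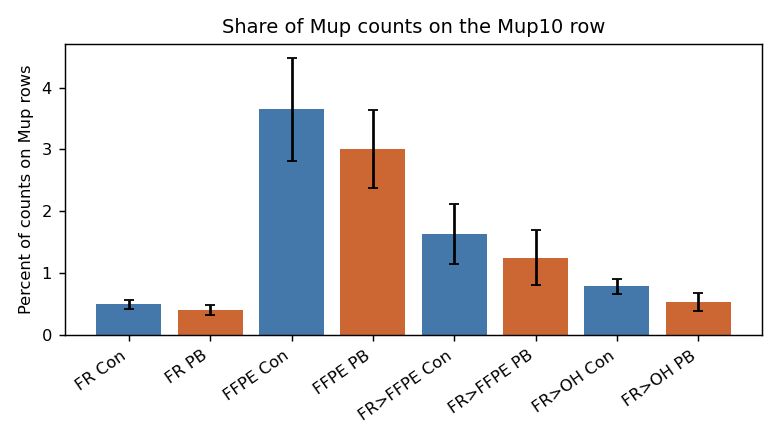
Percent of all counts on Mup genes that were assigned to Mup10 (y axis) by group (x axis), as the mean of 6 mice with the SD, blue for Con and orange for PB. Among Con mice the FFPE bar stands at 3.65%, the FR>FFPE bar at 1.64%, the FR>OH bar at 0.790% and the FR bar at 0.500%.

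Phenobarbital was compared with water within each preparation, and no member was called in any of the 4. Over 20 values the log2 fold changes ran from -0.47 to 0.58 and the smallest adjusted p was 0.2344, with 0 of 20 at an unadjusted p under 0.05 (edgeR) and 0 called by DESeq2 or limma. Of all genes, the share called was 2% in frozen liver, 1.92% after direct formalin, 2.42% in FR>OH and 1.87% in FR>FFPE. The members' 0 of 5 is not apart from that background. In FR, Mup20 had a log2 fold change of 0.01 ± 0.25, Mup3 0.02 ± 0.15, Mup15 0.18 ± 0.31, Mup21 0.21 ± 0.39 and Mup10 -0.28 ± 0.26. The largest values were those of Mup15 in FR>OH, 0.58 ± 0.31 (adjusted p = 0.2344), and of Mup10 in FR>FFPE, -0.47 ± 0.26 (adjusted p = 0.3379). Mup10 had a negative value in all 4 preparations, but the 4 come from the same mice. Among libraries with the same number after L, 0 of 5 genes were called in FR, FFPE or FR>OH, and FR>FFPE had no such number in both treatments. The interaction of PB with preparation called 0 of 5 genes for each embedded preparation, where 0% of all genes were called and 288 to 463 of 13370 had an unadjusted p under 0.05 (edgeR). Of the 15 values of the members, 0 had one, and DESeq2 called 0. That fit has no term for the mouse. With the mouse as a block, 1116 to 1164 of 13370 genes had an unadjusted p under 0.05 (edgeR). Over all settings the members' interactions ran from -0.31 to 0.46 on the log2 scale, under the 2-fold a call required. The lack of calls therefore cannot decide whether smaller differences exist.

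Mice differed from one another, and kept much of their order when the liver was preserved another way. Over the 8 groups the coefficient of variation ran from 10.6% to 22.2% for Mup3 and from 39.7% to 56.6% for Mup21. In frozen liver that of Mup20 was 14.7% among Con mice and 43.8% among PB mice.

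For Mup20, mice 18D and 18B held the top 2 places of 12 in all 4 preparations, with 18D ahead in FR (8897 against 7033 CPM) and FR>FFPE and 18B ahead in FFPE and FR>OH. Mouse 20B was last in FR, FFPE and FR>FFPE, at 2723, 1438 and 1625 CPM, and next to last in FR>OH. For Mup21, mouse 21C was first in FR and FFPE at 570.2 and 262.7 CPM, and mouse 82B was last in FR, FFPE and FR>OH. For Mup15, mice 8C, 21C and 20D took the last 3 places in all 4 preparations, with 4388, 5015 and 6065 CPM in FR. In FR, 8C was also the lowest Con mouse and 20D the lowest PB mouse for Mup2, Mup9, Mup13, Mup16, Mup17 and Mup19, whereas the same 3 mice were 5th, 1st and 3rd of 12 for Mup21. The order for Mup10 was kept less well: mouse 8A was first in FR, FFPE and FR>FFPE, but mouse 18B went from 4th in FR to 10th in FR>FFPE.

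**Figure D5:**
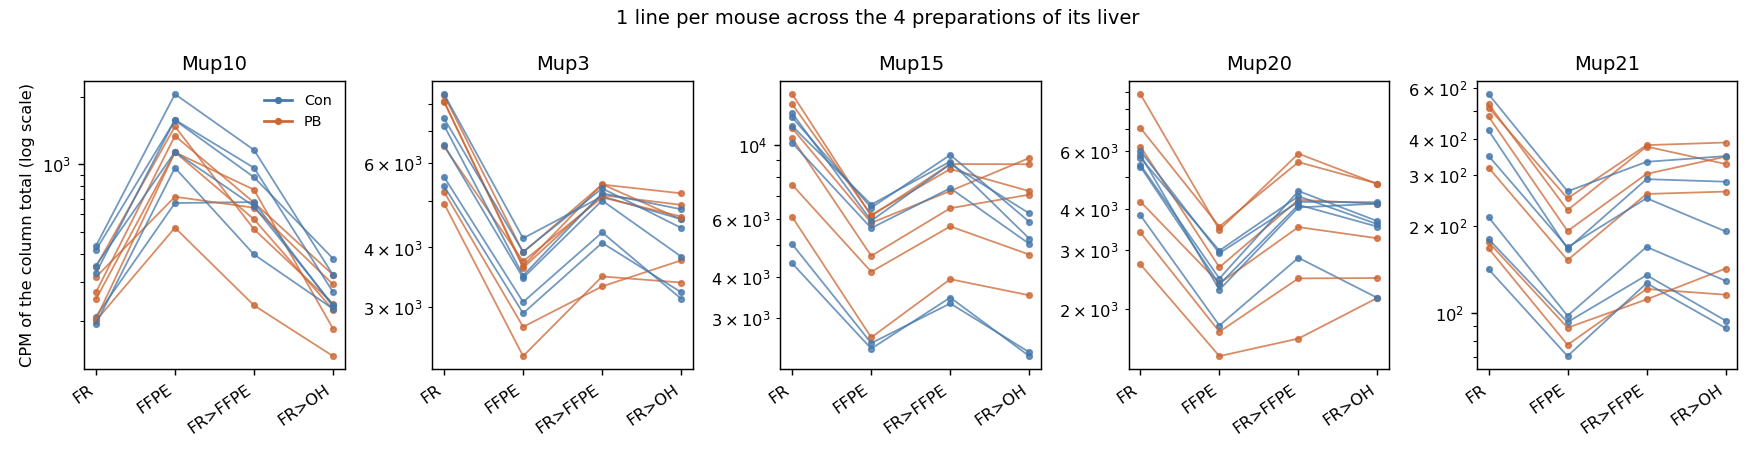
CPM of the 5 Mup genes (y axis, log scale) in the 4 preparations (x axis), with 1 line per mouse, blue for Con and orange for PB. Lines for Mup3, Mup15, Mup20 and Mup21 run nearly parallel, falling from FR to FFPE in 12 of 12 mice, while those for Mup10 rise in 12 of 12.

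The genes whose CPM was most like each member's across the 48 libraries were listed as a description, by Spearman's rho among genes of at least 10 CPM. The libraries share mice and preparations, which set part of every value. For Mup3 these were Dhrs1 (0.920), Hgd, the homogentisate dioxygenase of tyrosine breakdown (0.913), and Bbox1, which completes carnitine synthesis (0.908). For Mup20 they were Scp2, a sterol carrier (0.875), Ugt2a3 (0.872) and Otc, a urea cycle enzyme (0.826). For Mup21 they were Slc2a2, the liver glucose transporter (0.904), Fabp2 (0.888) and Ugp2, which makes UDP-glucose (0.887). For Mup15 they were Gm2083 (0.936), Ginm1 (0.757) and Dio1, a thyroid hormone deiodinase (0.730). The Gm2083 entry also spans several Mup loci. It averaged 10900 CPM and is separate from the Mup13 entry, which averaged 14.1 CPM. For Mup10 they were Afdn, a cell junction scaffold (0.784), Ccp110, a centriole protein (0.779), and 9530091C08Rik (0.775). Across the 48 libraries, the rho of Mup10 to its own family was highest for Mup18, at 0.300, and lowest for Mup21, at -0.54. These libraries include the preparations whose difference selected Mup10, so these values partly restate that shift and do not describe the order of mice. In FR, the mice ranked 9 to 12 were the same for Mup10 and Mup15. For Mup21 those mice ranked 1, 3, 5 and 7.

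The growth hormone axis and its male-biased targets were counted to show what else of the pathway moved with fixation. Of 16 male-biased genes, FFPE against FR called 0 higher and 2 lower in each treatment, with median log2 fold changes of -0.46 in Con and -0.46 in PB against 0.32 for all genes. Of all genes, 11.5% and 14.4% were called higher and 1.74% and 2.15% lower. The called genes were Cyp7b1, the oxysterol hydroxylase, at -1.001 ± 0.174 in Con (adjusted p = 3.387e-06) and -1.004 ± 0.174 in PB (adjusted p = 2.909e-06), and Ugt2b38, at -1.08 ± 0.38 (adjusted p = 0.0133) and -1.17 ± 0.39 (adjusted p = 0.008219).

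Of 22 genes of the growth hormone pathway and regulators of Mup genes, 3 were called higher in Con and 4 in PB, and none lower, with medians of 0.74 and 0.59. These are shares near the 11.5% and 14.4% of all genes called higher. Among them, Foxa1, a liver transcription factor, had a log2 fold change of 1.47 ± 0.24 in Con (adjusted p = 8.234e-07), and Rxra, a partner of nuclear receptors, 1.04 ± 0.08 (adjusted p = 3.773e-14). In PB these were 1.45 ± 0.23 for Foxa1 and 1.09 ± 0.09 for Rxra.

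Other secreted carriers were closer to the 4 falling Mup genes. Of 15 lipocalins and plasma carriers, 14 were tested, 5 were called lower and 1 higher in Con, and 6 lower and 1 higher in PB, with medians of -0.95 and -1.01, against 1.74% and 2.15% of all genes called lower and 11.5% and 14.4% higher. Those lower in both treatments included Hpx, the haem carrier, at -1.41 ± 0.50 in Con (adjusted p = 0.01477), Ambp at -1.30 ± 0.24 (adjusted p = 7.16e-06), Ttr, the thyroxine carrier, at -1.29 ± 0.15 (adjusted p = 8.14e-10), and Alb, albumin, at -1.26 ± 0.18 (adjusted p = 5.88e-08). Ptgds, a lipocalin that makes prostaglandin D, was the one higher, at 2.09 ± 0.43 in Con (adjusted p = 5.003e-05) and 1.59 ± 0.43 in PB (adjusted p = 0.001394). Its level was low, at 1.61 CPM on average over the 48 libraries. Of 19 female-biased genes, 7 passed the filter, and FFPE against FR called 1 higher in Con and none in PB, against the same 11.5% and 14.4%. That gene, Cux2, a liver repressor named after its values were seen, had 1.48 ± 0.54 in Con (adjusted p = 0.01789) and 1.07 ± 0.58 in PB (adjusted p = 0.1051). Cux2 averaged 0.535 CPM over the 48 libraries.

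Under phenobarbital in FR, 0 of 16 male-biased genes and 0 of 22 pathway genes were called, against 2% of all genes. With no fold criterion (adjusted p under 0.05, edgeR), 4 of the 22 pathway genes were lower and 0 higher. Of all 13370 genes, 347 were lower and 782 higher. The 4 were Foxa3 at -0.74, Rxra at -0.36, Stat5b at -0.31 and Hnf4a at -0.27. The pathway median was -0.18, against 0.004 for all genes. Of the male-biased genes, 2 were higher and 1 lower. Lower pathway genes numbered 5 after ethanol, 4 after direct formalin and 1 in FR>FFPE, with 0 higher. In FR, Ntrk2, a neurotrophin receptor that is female-biased in liver, fell by 2.78 on the log2 scale (adjusted p = 3.448e-06). Orm3, an orosomucoid, rose by 2.77 ± 0.66 there (adjusted p = 0.00396).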

How the data were processed

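Study 1 of the series was used: 48 mouse liver libraries made with a stranded total RNA kit after ribosomal RNA depletion. Per the labels, the authors aligned reads with STAR 2.5.3a to GRCm38 (mm10) after CASAVA 1.8.2, and estimated counts per gene in Partek Flow on RefSeq release 81, which divides reads among matching transcripts. The deposited estimated counts were rounded, and the deposited log2 values of CPM, made by the authors for 13370 genes, served as an alternative. The rat tables, and the AML12 cell line tables from a targeted probe assay, were not used here.

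CPM were counts divided by the column total. Genes with a geometric mean (offset 0.0001) above 1 count were kept (13370 of 24543). edgeR 4.0.16 (R 4.3.3) quasi-likelihood tests were fitted to all 48 libraries with 8 group means and the column total as library size, and tested on simulated data. A call needed a Benjamini-Hochberg adjusted p under 0.05 over all genes and a 2-fold change. The SE is the fold change divided by the root of the F statistic. Named genes were the 5 members, other Mup genes of at least 1 CPM, up to 4 per direction in each list called in PB against Con in FR or in FFPE against FR in both treatments, the 3 genes outside the family most alike and Cyp2b10. Some genes that this rule names are not reported here. The members and lists were chosen with earlier results of these data known.

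Same-numbered libraries came from the same mouse by the labels: deviations from group means correlated with a median r of 0.699 in 72 same-mouse pairs of preparations (lowest 0.46) and -0.122 in 360 pairs of different mice. No 2 of the 120 pairs of libraries within groups were identical, and the lowest chi-square per degree of freedom was 6.65. Alternatives were TMM, DESeq2 1.42.0, limma 3.58.1 on the log2 values, other filters, no fold criterion, only the groups compared, a mouse block, leaving out each mouse and libraries with the same number after L. Coding identity was computed by global alignment in Biopython 1.88. Totals of 4952797 to 13702672 counts limit precision little beside the spread between mice.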

Additional observations from a re-analysis of the deposited data

Results flagged for a closer look

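In 40 groups of 6 libraries (5 genes by 8 groups), 3 held a library far from the rest by Dixon's criterion, where chance alone flags about 1 in 20 groups. All 3 were Mup20 in mouse 21C, a Con mouse, and the 3 libraries come from 1 liver. Its Mup20 level was 3833 CPM in FR, with the next library at 5376 CPM and the highest at 5992 CPM. It was 2851 CPM in FR>FFPE, with the next at 4045 CPM, and 2156 CPM in FR>OH, with the next at 3540 CPM. The gap took 0.714, 0.709 and 0.679 of the group's range, against a critical value of 0.625. In FFPE the same mouse was lowest too, at 1779 CPM, without passing that value. Among FR Con libraries mouse 21C was also lowest for Mup5, Mup6, Mup11, Mup14 and Mup18, while it was first of 12 for Mup3 and Mup21. Without this mouse Mup20 was still called in FFPE against FR in Con.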

How the results depend on the processing

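No direction against FR changed: in 525 alternative fold changes against FR (5 genes in FFPE, and the 4 other than Mup10 in FR>FFPE and FR>OH), 0 reversed, and the values ran from -2.13 to 2.13. Part of the 525 had no room to reverse. Dropping the fold criterion keeps the same fold change, and leaving out a mouse of the other treatment keeps the libraries compared. Scaling sets the size. The median of all genes in FFPE against FR in Con was 0.32 with the column total, 0.04 with TMM, 0.04 with DESeq2 and -0.69 in the authors' log2 CPM, and Mup10 had 2.04, 1.77, 1.76 and 1.05 there. In FFPE against FR in Con, 3 of 5 genes were called, and 5 with TMM, with DESeq2, with limma on the log2 values and with no fold criterion, with 3 to 3 when each mouse was left out. In PB, 5 were called, and 4 with limma, where Mup10 had 0.99 (adjusted p = 0.001501). FR>FFPE against FR went from 0 to 1 in Con with no fold criterion, and from 0 to 1 in PB with that and with limma. FR>OH against FR in Con went from 1 to 2 with no fold criterion and to 3 with limma, and in PB from 0 to 1 with no fold criterion. The cause was not tested beyond the scaling shown. The replicate block of mice changed no count of calls (3 of 5 in FFPE Con, 5 of 5 in FFPE PB). The ratio of Mup10 in FR>FFPE over FR>OH in Con was 2.83 on CPM, 2.07 as a share of Mup counts and 2.65 to 3.00 when a mouse was left out. Phenobarbital called 0 of 415 values over all settings. FR>FFPE had no number after L in common between Con and PB, so that alternative was not possible there. How reads were divided among copies could not be varied from these counts.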
